A study of Mus musculus with 2 samples.

Results

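The CC chemokine ligands described here are 10 genes, Ccl2, Ccl3, Ccl4, Ccl6, Ccl7, Ccl8, Ccl9, Ccl11, Ccl12 and Ccl24, chosen by name from the 19938 genes that had a probe set naming them alone. Each of the 10 had 1 such probe set. The arrays, Affymetrix Mouse Gene 1.0 ST chips, measured total RNA of cells labelled B-Gal negative or B-Gal positive, 1 array for each, from wounded skin of TCF reporter mice 1 week after wounding. A TCF reporter is read here as a transgene that marks cells with active TCF factors, the partners of beta-catenin in Wnt signalling, by beta-galactosidase. Both groups carry the reporter and share the time point, and they differ in the labels by B-Gal alone. The sources used here name neither the promoter of the reporter, nor the number of mice pooled, nor the sorting method. The labels call the tissue skin scar while the design text speaks of microdissected wound tissue. The labels were not tested against the reporter gene itself. With 1 array per group no value has an error, and no p-value was computed.

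Chemokines are small secreted proteins that bind G protein-coupled receptors on leukocytes and direct their migration, and the CC family is named for a pair of adjacent cysteines near the amino terminus. In wounded skin CC ligands bring in monocytes, macrophages, lymphocytes and eosinophils, and they are made by macrophages, fibroblasts, keratinocytes and endothelial cells. Most ligands share receptors: Ccl2, Ccl7 and Ccl12 act through CCR2, Ccl3, Ccl6 and Ccl9 through CCR1, Ccl11 and Ccl24, the eotaxins, through CCR3, and mouse Ccl8 through CCR8.

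Of the 10 ligands, 6 were at least 2-fold higher on the array of B-Gal positive cells, 1 was at least 2-fold lower and 3 differed by less. By comparison, 9.92% of the 13784 expressed genes were at least 2-fold higher and 12.7% at least 2-fold lower. Expressed means that at least 1 array lay above a floor of 5.59 on the log2 scale, the 95th percentile of 1194 olfactory and vomeronasal receptor genes, and all 10 ligands passed it. The median difference of the 10 ligands, B-Gal positive minus B-Gal negative, was 1.98 on the log2 scale, against 0.06 over expressed genes. Among the 8510 expressed genes whose mean log2 value lay in the range of the ligands, 13.6% were at least 2-fold higher and 12.7% at least 2-fold lower. The ligands were chosen with earlier results of these arrays known, so these counts describe them and are not independent evidence.

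The upstream sequence is shown for ligand genes that lie side by side and were both higher in B-Gal positive cells, so that neighbours with differences of the same sign can be compared. RefSeq promoters of the assembly GRCm38.p6 were matched for 5 of the 10 ligands, Ccl12, Ccl8, Ccl9, Ccl6 and Ccl3. The lines below give the 250 bases before the start site, 5′ to 3′ on the strand of the gene, for the neighbours Ccl12 (chr11:82101595-82101844, plus strand) and Ccl8 (chr11:82114935-82115184, plus strand), then for the neighbours Ccl9 (chr11:83578637-83578886, minus strand) and Ccl6 (chr11:83593088-83593337, minus strand). Capitals mark GGAAGT, a core bound by ETS factors such as PU.1 of myeloid cells, and TATAAA, the letters of a TATA box. Each was searched on both strands and at any position.
Ccl12: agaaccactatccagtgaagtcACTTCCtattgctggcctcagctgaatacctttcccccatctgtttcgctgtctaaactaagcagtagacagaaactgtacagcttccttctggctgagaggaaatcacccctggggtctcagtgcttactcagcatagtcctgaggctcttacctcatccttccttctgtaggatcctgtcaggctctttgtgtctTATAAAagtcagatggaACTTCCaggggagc
Ccl8: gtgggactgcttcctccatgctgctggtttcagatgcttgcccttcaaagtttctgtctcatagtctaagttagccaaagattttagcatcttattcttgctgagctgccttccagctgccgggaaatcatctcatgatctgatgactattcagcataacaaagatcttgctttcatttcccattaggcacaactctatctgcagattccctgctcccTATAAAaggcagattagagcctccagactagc
Ccl9: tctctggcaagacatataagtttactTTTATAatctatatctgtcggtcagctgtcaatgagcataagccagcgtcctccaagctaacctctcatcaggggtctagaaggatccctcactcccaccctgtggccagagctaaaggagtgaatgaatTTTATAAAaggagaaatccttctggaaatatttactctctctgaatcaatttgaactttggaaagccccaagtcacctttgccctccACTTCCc
Ccl6: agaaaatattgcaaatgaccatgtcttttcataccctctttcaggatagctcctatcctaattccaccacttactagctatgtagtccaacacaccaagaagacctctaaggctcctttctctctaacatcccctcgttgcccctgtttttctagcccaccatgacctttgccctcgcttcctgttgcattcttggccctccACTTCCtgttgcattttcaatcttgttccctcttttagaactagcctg

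Ccl12 and Ccl8 both held TATAAA on the strand of the gene, with its first base 31 and 32 bases before the start site. Ccl9 held it on both strands in an overlapping match, 92 bases before the start site on the strand of the gene. A separate match on the other strand of Ccl9 began 224 bases before the start site. TATAAA was found in 12.4% of all 32851 RefSeq promoter windows of this length. GGAAGT, or ACTTCC on the other strand, was found in 4 of the 5 ligand promoters, Ccl12, Ccl9, Ccl6 and Ccl3, and in 19.7% of all windows. Ccl9 and Ccl6 shared a run of 13 bases, gccctccacttcc, which spans that core and begins 14 and 55 bases before their start sites. In the best local alignment of Ccl12 with Ccl8, 41 of 54 aligned bases were identical. The search also covered GGG and CC with 5 bases between them for NF-kB, TGANTCA for AP-1, TTGCNNAA for C/EBP, TTC and GAA with 4 bases between them for STAT factors, GAAA and GAAA with 2 bases between them for interferon-regulated factors and ATCAAAG for TCF factors, on both strands and without excluding overlaps. Ccl9 alone held the NF-kB letters (45.8% of all windows) and the AP-1 letters (6.75%). The C/EBP, STAT, interferon and TCF letters were in 0 of the 5 windows, against 9.56%, 5.85%, 2.98% and 3.21% of all windows. These are matches of letters in a short window and say nothing of binding. All 5 ligands with a promoter had positive differences, and none was matched for Ccl2, Ccl7 or Ccl11. Motifs of higher ligands therefore cannot be set against those of level or lower ones.

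The CCR2 ligands, which recruit inflammatory monocytes, did not move together. Ccl2, the main monocyte attractant known as MCP-1, had log2 values of 10.59 in B-Gal negative and 10.52 in B-Gal positive cells. Ccl7, known as MCP-3, had 10.67 and 10.78. These values are almost level between the arrays, with differences of -0.06 and 0.11, and 15.8% of expressed genes had an absolute difference under 0.12. Ccl12, known as MCP-5, had 4.90 in B-Gal negative cells, under the floor, and 8.87 in B-Gal positive cells. Against the floor Ccl12 was at least 9.76-fold higher, a difference of at least 3.29 on the log2 scale. With each value below the floor set to the floor, that bound exceeded the difference of 99.5% of expressed genes, and the ranks below are taken in the same way. Raising the floor to the 99th percentile of the receptor genes (6.27) lowered this bound to 6.08-fold.

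**Figure D1:**
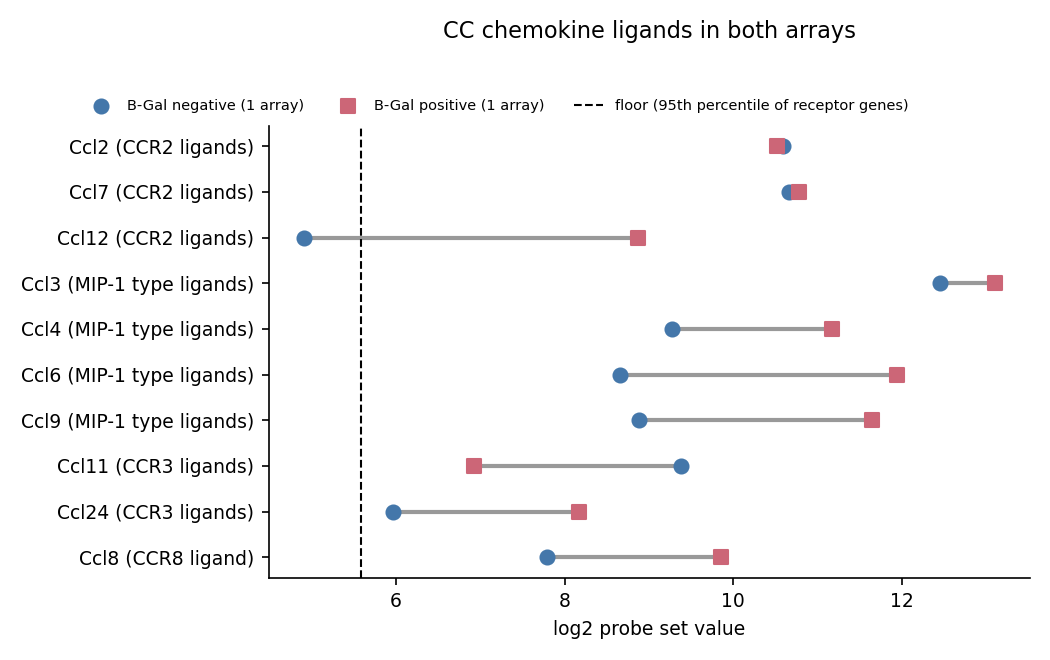
Log2 probe set values of the 10 CC ligands (rows, with their group) in B-Gal negative (circles) and B-Gal positive (squares) cells, 1 array each; the dashed line is the floor of 5.59. Ccl2 and Ccl7 overlap between arrays, Ccl11 is the row where the square lies well to the left, and Ccl12 is the row with a circle under the floor; positions of different rows are not comparable, since probe sets differ in brightness.

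The ligands of the MIP-1 type, Ccl3, Ccl4, Ccl6 and Ccl9, which act on macrophages, monocytes and effector lymphocytes, were all on the higher side in B-Gal positive cells. Ccl6, also called C10, had log2 values of 8.66 in B-Gal negative and 11.94 in B-Gal positive cells and was 9.69-fold higher. Ccl9, known as MIP-1 gamma, had 8.88 and 11.65 and was 6.79-fold higher. Both differences exceeded those of most expressed genes, 99.5% for Ccl6 and 98.9% for Ccl9. Ccl4, or MIP-1 beta, had 9.28 and 11.18 and was 3.72-fold higher. Ccl3, or MIP-1 alpha, had 12.45 and 13.11, a 1.57-fold difference, which does not reach 2-fold. The 4 ligands thus ranged from 0.65 to 3.28 on the log2 scale, with a median difference of 2.33, Ccl3 having the smallest difference. The RefSeq spans of Ccl3 and Ccl4 overlap in this annotation, and whether probes of one gene read RNA of the other was not tested.

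The eotaxins, which attract eosinophils through CCR3, went in opposite directions. Ccl11, eotaxin-1, which fibroblasts make in response to type 2 cytokines, had log2 values of 9.38 in B-Gal negative and 6.93 in B-Gal positive cells and was 5.47-fold lower. Ccl24, eotaxin-2, a product of alternatively activated macrophages, had 5.96 and 8.17 and was 4.62-fold higher. Their differences, -2.45 and 2.21, lie 4.66 apart on the log2 scale. The B-Gal negative value of Ccl24 was only 0.37 above the floor, and against the floor at the 99th percentile it was at least 3.72-fold higher. On the B-Gal positive array Ccl11 still exceeded the floor by 1.34. Only 3.46% of expressed genes had a difference below that of Ccl11.

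Ccl8, the CCR8 ligand known as MCP-2, had log2 values of 7.79 in B-Gal negative and 9.86 in B-Gal positive cells. It was 4.18-fold higher, a difference of 2.06 on the log2 scale, larger than in 97.3% of expressed genes. Both values were well above the floor.

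**Figure D2:**
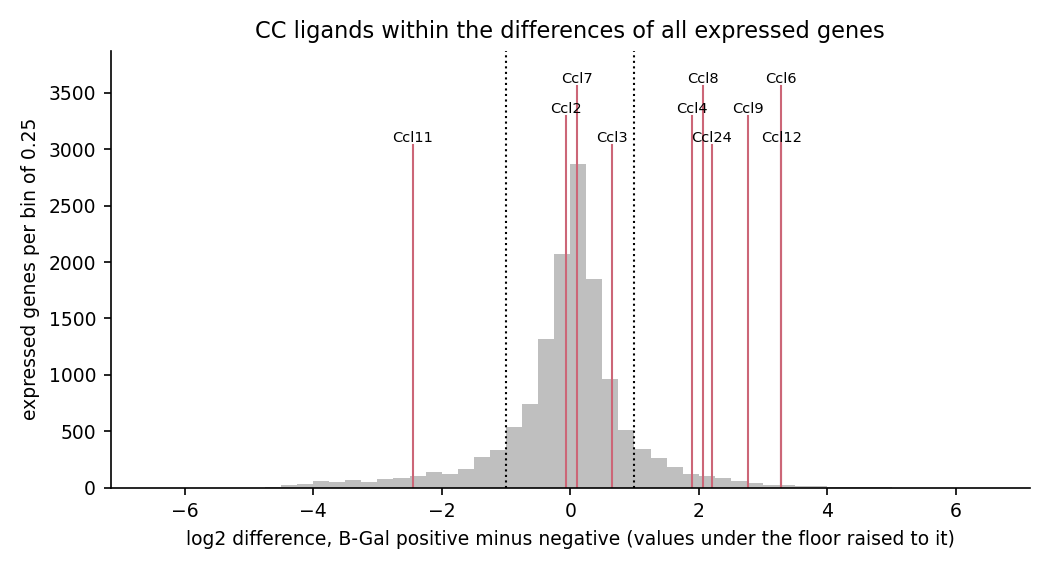
Number of expressed genes (bars, y axis) by log2 difference, B-Gal positive minus B-Gal negative (x axis, bins of 0.25), each value below the floor first set to the floor, and the 10 CC ligands as vertical lines and dotted lines at 2-fold. Ccl2, Ccl7 and Ccl3 stand inside the dotted lines, Ccl11 at -2.45 to their left, and the other ligands between 1.90 and 3.29 to their right, where Ccl12 stands at a lower bound.

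In the RefSeq order of protein-coding genes on chromosome 11, 9 of the 10 ligand genes lie in runs of neighbouring CC genes, with Ccl24 elsewhere. The run of 6 reads Ccl2, Ccl7, Ccl11, Ccl12, Ccl8 and Ccl1, and its differences were -0.06, 0.11, -2.45, at least 3.29, 2.06 and at least 0.40. Ccl11, the lowest of the 10 ligands, and Ccl12 are direct neighbours, at least 5.74 apart on the log2 scale. Whether Ccl12 or Ccl6 differed most is not settled, since the bound of Ccl12 was 3.29 against 3.28 for Ccl6, and after adding 32 to every linear value they stood at 3.02 and 3.18. The run of 5 reads Ccl5, Ccl9, Ccl6, Ccl3 and Ccl4, with differences of 0.45, 2.76, 3.28, 0.65 and 1.90, a span of 2.83. All 5 of its genes had positive differences, while the run of 6 held values on both sides of 0. Of all 13784 expressed genes, 7427 had positive differences. Ccl1 and Ccl5, which complete the runs, were not among the 10 ligands, and the B-Gal negative value of Ccl1, 5.48, lay under the floor. Its bound of 0.40 does not hold at the floor of the 99th percentile, which exceeded both its values.

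**Figure D3:**
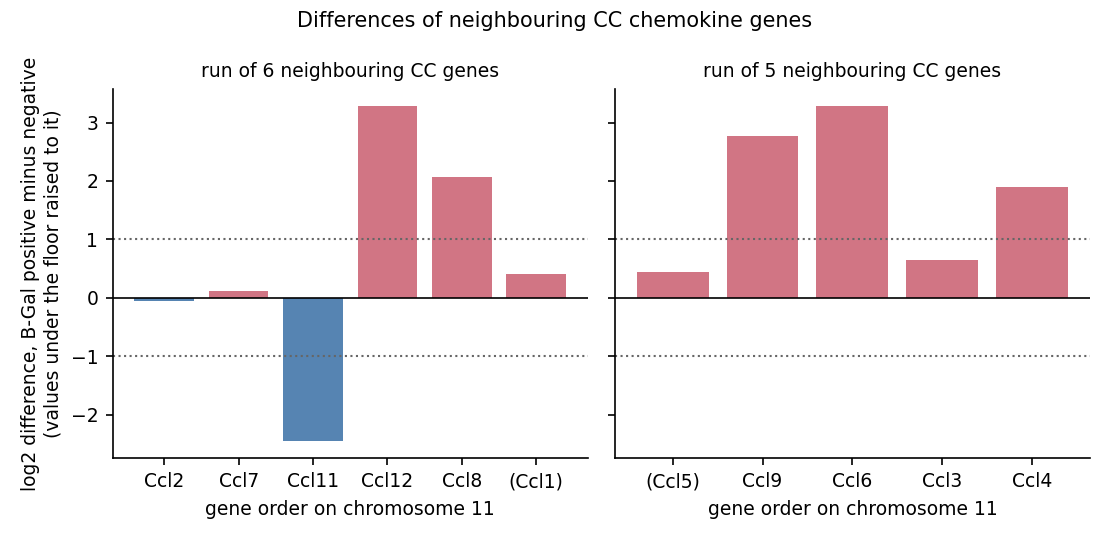
Log2 difference (bars, y axis), B-Gal positive minus B-Gal negative, of CC chemokine genes in their order along chromosome 11 (x axis) in the run of 6 and the run of 5, each value below the floor first set to the floor; genes in brackets are not among the 10 ligands, colour marks the sign, and dotted lines mark 2-fold. The bars of Ccl11 (-2.45) and Ccl12 (at least 3.29) stand next to each other.

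The CC ligands outside the 10 differed little. Of 13 such genes, 9 could be read from their own probe set and 6 were expressed, and 0 of the 6 differed by 2-fold (median 0.43). Ccl22, a ligand of CCR4 from macrophages and dendritic cells, had log2 values of 6.24 and 6.90 on the B-Gal negative and the B-Gal positive array, a 1.57-fold difference. Ccl5, known as RANTES, had 8.75 and 9.20, 1.36-fold higher. Ccl1, a CCR8 ligand, was at least 1.32-fold higher against the floor, and Ccl17, the other CCR4 ligand, at least 1.26-fold. Both genes were under the floor at the 99th percentile (6.27) in both arrays, so these bounds do not hold there. The olfactory and vomeronasal receptor genes behind the floor had a median difference of 0.28, with a standard deviation of 0.37. Ccl20, Ccl26 and Ccl28 were under the floor in both arrays.

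Of 10 CC receptor genes read from their own probe set, 5 were expressed, with a median difference of 0.85. Ccr2, the receptor of Ccl2, Ccl7 and Ccl12 on monocytes, had log2 values of 8.51 and 10.85 and was 5.05-fold higher in B-Gal positive cells. Ccr1, the receptor of Ccl3, Ccl6 and Ccl9, had 8.12 and 9.29 and was 2.26-fold higher. Ccr3, the eotaxin receptor, had 5.86 and 6.71, a 1.80-fold difference close to the floor. Ccr7, the lymph node homing receptor, had 8.09 and 7.91. Ccr8, the receptor of Ccl8, had 5.41 and 3.98, under the floor in both arrays, so no fold is given. Thus 2 of the 5 expressed receptors were at least 2-fold higher and 0 lower.

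Atypical and related receptors, which bind chemokines without the usual signalling, went both ways. Of 5 expressed, 1 was higher by 2-fold and 2 were lower on deposited values, and the list had a median of 0.14 but a mean of -0.41. Ccrl2, which presents the attractant chemerin, was 4.05-fold higher (9.80 and 11.81). Ackr3, a scavenger of Cxcl12, was 9.85-fold lower (9.16 and 5.86). Ackr1, which carries chemokines across venules, was at least 1.68-fold lower against the floor, and Ackr4 had a deposited difference of 0.44 with its B-Gal negative value under the floor. Against the floor at the 99th percentile (6.27) the bound of Ackr1 was 1.04-fold.

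Several CC ligand genes are classical NF-kB targets, and 15 of 18 genes of this pathway could be read alone, all expressed. The B-Gal positive array was higher by 2-fold or more for 6 of the 15 and lower for 0, and the median difference was 0.77. They were Nfkbid (3.31-fold), Nfkbie (2.87-fold) and Nfkbib (2.51-fold), inhibitors of the IkB family, Rel, a subunit of NF-kB (3.24-fold), the kinase gene Ikbkb and the feedback inhibitor gene Tnfaip3. Ikbkb and Tnfaip3 were just past the threshold, at 2.08-fold and 2.03-fold, and were named after their values were seen. The other 9 genes differed by less than 2-fold. Among them Nfkb2 was 1.45-fold, Relb 1.41-fold and Rela 1.16-fold higher, and Myd88 was 1.02-fold lower. These were also named after their values were seen. Over all expressed genes 9.92% were at least 2-fold higher and 12.7% at least 2-fold lower.

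Type 2 cytokine genes, which act upstream of both eotaxins, included 0 of 9 expressed genes that were higher by 2-fold and 2 that were lower, with a median close to 0 and a mean difference of -0.43. Il33, an alarmin that drives type 2 responses, was 15.4-fold lower, and Il13ra1, a chain of the IL-13 receptor, was 2.37-fold lower. Stat6, the transcription factor of IL-4 and IL-13 signalling, was 1.81-fold higher, and Socs1, a feedback inhibitor, was 1.75-fold lower. Il4, Il5 and Tslp were under the floor in both arrays. Il13 and Il25 counted as expressed but exceeded the floor by at most 0.40 and 0.68. Neither exceeded the floor at the 99th percentile on either array.

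Enzymes that cut chemokines had a median of -1.73 over 8 expressed genes, 5 of them lower by 2-fold or more and 2 higher on deposited values. Dpp4, which trims the amino terminus of Ccl11 and other chemokines, had log2 values of 10.31 and 7.18 and was 8.80-fold lower. Mmp3, stromelysin-1, was 15.6-fold lower and Mmp2, a gelatinase that cleaves Ccl7, was 13.2-fold lower. Mmp12, the macrophage elastase, which cleaves several CC ligands, had 9.11 and 12.04 and was 7.62-fold higher. Mmp8, the other higher gene, was at least 1.56-fold higher against the floor and was named after its value was seen. It was under the floor at the 99th percentile (6.27) in both arrays, where 1 gene of the list was higher by 2-fold.

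Genes of receptor tyrosine sulfation and of signalling below chemokine receptors were higher by 2-fold or more for 5 of 9 expressed genes and lower for 1, and the median was 1.41. Pik3cg, the PI3-kinase of G protein-coupled receptors in leukocytes, was 9.31-fold higher, and Arrb2, a beta-arrestin, was 6.82-fold higher. Dock2, a Rac activator of migrating leukocytes, had 7.60 and 10.74. Tpst1, a tyrosine sulfotransferase, had 9.25 and 7.31 and was the gene lower by 2-fold or more. The shares over all expressed genes were 9.92% higher and 12.7% lower.

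**Figure D4:**
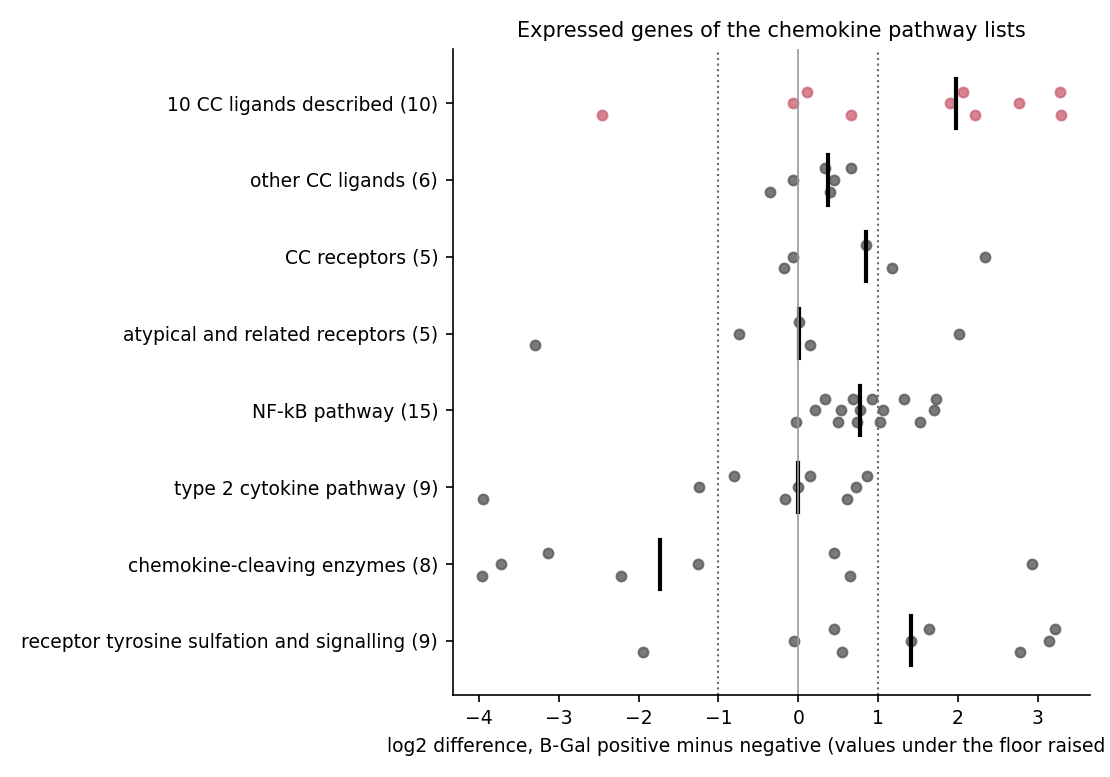
Log2 difference, B-Gal positive minus B-Gal negative (x axis), of each expressed gene (points) in the 10 CC ligands and 7 gene lists of the chemokine pathway (rows, number of genes in brackets), each value below the floor first set to the floor; black bars are medians and dotted lines 2-fold. The NF-kB row lies almost wholly to the right of 0, and the row of chemokine-cleaving enzymes has its median at -1.73.

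Markers of several cell types differed between the arrays along with the ligands. All 12 macrophage markers had higher values with B-Gal positive cells, by 2.09 to 5.60 on the log2 scale with the value of Cd163 raised to the floor, and their mean log2 value was 7.66 in B-Gal negative and 11.79 in B-Gal positive cells. The 6 higher ligands differed by 1.90 to 3.29, with Ccl12 at its bound. All 10 fibroblast markers were at least 2-fold lower, by -1.91 to -4.32, with means of 12.54 and 9.18, while Ccl11 differed by -2.45. Every one of these fibroblast markers also exceeded the floor on the B-Gal positive array, and 11 of the 12 macrophage markers were above it in B-Gal negative cells, all but Cd163. In bulk RNA, fewer cells of a type and less RNA per cell cannot be told apart. The part of cell makeup in the ligand differences was not tested.

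Eosinophil markers gave little signal beside the eotaxins. Of 8 genes, 6 could be read alone, and Epx, Prg2, Ear6 and Il5ra, which encode granule proteins, a ribonuclease and the IL-5 receptor, were under the floor in both arrays, with list means of 4.79 and 5.09. Siglecf and Ccr3 were above it, with 0 of these 2 differing by 2-fold. All 8 expressed mast cell markers were lower by 2-fold or more, and the list of 9 had means of 7.89 and 4.98. Endothelial markers were lower for 6 of 8 (8.07 and 6.45), and, once each value below the floor was set to the floor, neutrophil markers lower for 4 and higher for 0 of 6 (6.86 and 5.53) and T and NK cell markers lower for 3 and higher for 1 of 9 (6.37 and 5.35). On deposited values Mmp8 also passed 2-fold on the higher side and Ncr1 on the lower side, with bounds of 1.56-fold and 1.03-fold. Neither bound holds at the floor of the 99th percentile, which exceeded both values of each gene. Among dendritic cell markers 1 of 6 was at least 2-fold higher and 0 lower (6.68 and 6.87), and among keratinocyte markers 2 of 6 were lower and 0 higher (5.92 and 5.61). These pairs in brackets are mean log2 values over all genes of a list read from their own probe set, the B-Gal negative array first. Their part in the ligand differences was not tested.

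**Figure D5:**
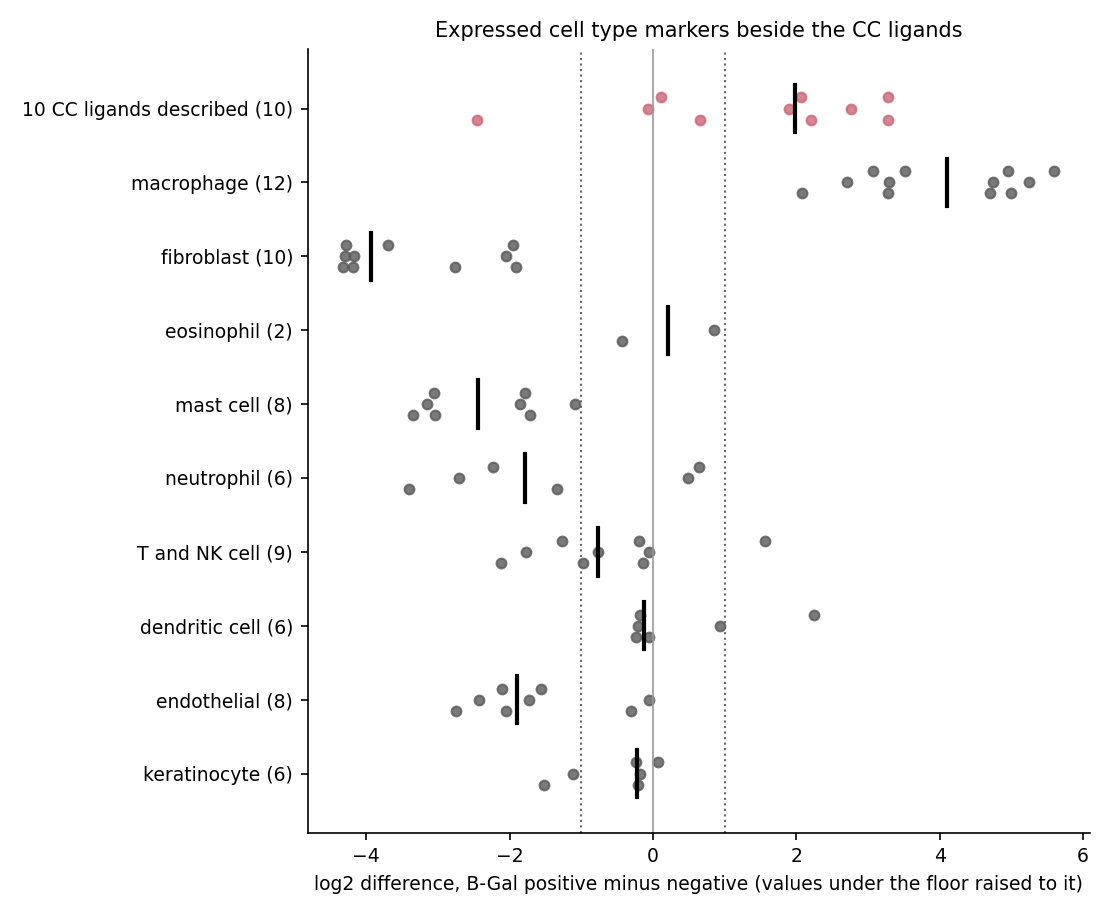
Log2 difference, B-Gal positive minus B-Gal negative (x axis), of each expressed gene (points) in the 10 CC ligands and 9 lists of cell type markers (rows, number of genes in brackets), each value below the floor first set to the floor; black bars are medians and dotted lines 2-fold. The macrophage row spans 2.09 to 5.60 and the fibroblast row -4.32 to -1.91, and the CC ligands lie between -2.45 and 3.29.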

How the data were processed

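The deposited table gave 1 value per probe set and array, read as log2 from its range of 1.16 to 14.8. Per the submitters' processing notes the authors used Partek. The sources used here do not say how probes were summarized and normalized, or in which log base. Folds rest on the log2 reading. Values were used without further scaling, with array medians of 6.18 (B-Gal negative) and 6.16 (B-Gal positive). GEO's platform annotation gives 1 gene for 21789 of 28853 probe sets. Of several for a gene, the brightest by its mean over the arrays was kept. Gene IDs were checked against RefSeq names of GRCm38.p6, and 0 symbols differed.

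The difference is B-Gal positive minus B-Gal negative. A fold with 1 array under the floor is a lower bound, taken from the floor and written as at least. Counts used deposited values unless said otherwise. Every such count of a list at 2-fold is read beside the shares over all expressed genes, 9.92% higher and 12.7% lower. Levels of different probe sets are not compared. The number of arrays limits the precision.

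The ligands, 7 pathway lists and 9 marker lists were chosen with earlier results of these data known. All ligands are named, and up to 4 expressed genes with the largest absolute difference per pathway list. Receptors of the ligands, genes under or close to the floor and further NF-kB genes are named besides. Alternatives were median centring, quantile normalization, loess, an offset, other floors, no filter, other thresholds, means over probe sets and list means. Python 3.11.15, pandas 2.3.3 and statsmodels 0.14.6 were used.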

Additional observations from a re-analysis of the deposited data

How the results depend on the processing

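The count of ligands at least 2-fold higher was 6, and lower 1, under median centring, quantile normalization, loess, the offset of 32, the mean over probe sets, the floor at the 99th percentile, no filter, and values raised to the floor. The mean over probe sets could not change these counts, since each ligand had 1 probe set. The higher floor and no filter only choose which genes are kept. All 10 ligands exceeded that floor on at least 1 array, so these settings could not change the counts either. At 1.5-fold the counts were 7 and 1, and at 4-fold 5 and 1. The median difference of the 10 ligands was 1.80 with the offset, 1.93 with loess and 1.95 with quantile normalization, against the reported 1.98, which median centring raised slightly, and their mean was 1.44. No ligand changed sign under the 6 alternatives that recompute its difference. The offset and raising values to the floor cannot reverse a sign, nor can the mean over probe sets for a gene with 1 probe set. Ccl12 ranged from 3.02 to 3.99 and Ccl24 from 1.76 to 2.23, both lowest with the offset, which shrinks dim values by construction. Loess moved the median difference of all genes from 0.12 to -0.02, and Ccl2 stayed between -0.08 and -0.04 and Ccl7 between 0.11 and 0.13, too close to 0 to give a direction. Among expressed genes, 2585 were higher and 2765 lower at 1.5-fold, and 415 and 788 at 4-fold, against 1368 and 1753 at 2-fold. The median of atypical receptors was -0.62 under quantile normalization, -0.74 under loess and -1.34 at the higher floor, against 0.14, and that of CC receptors 0.37, 0.26 and, without the filter, 0.14, against 0.85. At the higher floor Ackr2 and Ackr4 left their list, as both were under it in both arrays. Their log2 values were 6.11 and 5.16 in B-Gal negative and 6.25 and 5.60 in B-Gal positive cells. Without the filter, CC receptors under the floor joined their list. The floor was set anew under quantile normalization and loess, at 5.56 and 5.55 against 5.59, so genes close to it can leave or join a list. On deposited values Ackr4 exceeded the floor by only 0.01, and Ccr4 lay 0.05 under it in B-Gal negative cells. The part of such genes in the shifts under these settings was not tested. At 1.5-fold 10 NF-kB genes were higher and at 4-fold 0. No paired analysis was possible because each group had 1 array. Low signal over background limits Ccl12 and Ccl24 in B-Gal negative cells.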

Other observations

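Some CC ligands could be read only through probe sets that name several genes. The 4 probe sets of the Ccl21 genes, ligands of CCR7 that guide cells to lymphatic vessels, each had log2 values of 7.37 in B-Gal negative and 6.64 in B-Gal positive cells, a difference of -0.73. The probe sets naming Ccl27a, a keratinocyte chemokine, with its copies had differences of 0.16, 0.16 and 0.06. Ccl19, the other ligand of CCR7, had 5 probe sets of its own, with differences of about -0.36 in each, and the one used in the gene comparison had 7.19 and 6.83. The 4 Ccl21 probe sets had identical values, as did some of the Ccl19 probe sets (7.19 and 6.82). They are therefore not counted as separate measurements, and whether they share probes was not tested.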
